A study of Homo sapiens with 15 samples.

Results

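The genes described are TXNIP, the alpha-arrestins ARRDC1, ARRDC2, ARRDC3 and ARRDC4, and the Mondo family genes MLXIP, MLXIPL and MLX. They were chosen by name, as the arrestin-fold relatives of TXNIP together with the transcription factors that control it. The choice was made with earlier results of these data known. All 8 were found among the 57500 genes of the count tables, and all 8 passed the filter on low counts that left 15517 genes for testing. RNA was sequenced from K562, an established human leukaemia line of erythroid character, in 5 groups of 3 libraries. The control is labelled WT and, as treatment, NT, which is read here as no treatment. The series text names DMSO, and nothing states that these cells were transfected. The other 4 groups had all been transfected with Cas9FCPF, a Cas9 protein carrying the FCPF peptide tag, and were held for 1 h with a compound at 1 µM. Each compound, JQ1 or JQ1-FCPF, was given to cells with and to cells without sgRNA. JQ1 blocks the bromodomains of BET proteins, which read acetylated histones, and JQ1-FCPF is the form named for the peptide tag. The series title names dCas9 (a form that cannot cut DNA) where the labels name Cas9, and which site the sgRNA targets is not in the labels. A comparison with the control therefore covers transfection, Cas9FCPF, compound and, where given, sgRNA at once, and these cannot be told apart. No group had sgRNA without a compound, and none is labelled as carrying a control sgRNA. In a comparison with against without sgRNA, the presence of an sgRNA and the site it targets therefore cannot be told apart. Whether replicates were separate cultures is not stated, so a p-value here reflects the spread among libraries, which may be technical. In bulk RNA, fewer cells of a kind and less RNA per cell cannot be told apart.

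Alpha-arrestins are adaptor proteins with an arrestin fold. Most of them use PPxY motifs to bring ubiquitin ligases of the NEDD4 family to membrane proteins, which are then taken up or degraded. TXNIP also binds thioredoxin through a disulfide bond and promotes the removal of glucose transporters from the cell surface. Its transcription is a well-known readout of sugar phosphates inside the cell: MondoA (the product of MLXIP) or ChREBP (the product of MLXIPL) pairs with MLX and binds carbohydrate response elements, which consist of a pair of E-box-like sites set apart by a short spacer. ARRDC4 is the other alpha-arrestin best known as a target of MondoA.

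The sequences upstream of TXNIP, ARRDC4 and ARRDC2, the 3 members with the smallest p-values for JQ1-FCPF with against without sgRNA, are shown first because the Mondo factors act through such sites. RefSeq gives 11 transcript starts for the 8 genes in build GRCh38.p14, and 250 bases before each start were searched on both strands. The letters CACGNG, a relaxed E-box-like site, are in capitals, on whichever strand they occur, and sequences read 5′ to 3′ in the direction of transcription. They lie at chr1:145996580-145996829 (minus strand) for TXNIP, chr15:97960453-97960702 (plus strand) for ARRDC4 and chr19:18000874-18001123 (plus strand) for the first start of ARRDC2.
TXNIP: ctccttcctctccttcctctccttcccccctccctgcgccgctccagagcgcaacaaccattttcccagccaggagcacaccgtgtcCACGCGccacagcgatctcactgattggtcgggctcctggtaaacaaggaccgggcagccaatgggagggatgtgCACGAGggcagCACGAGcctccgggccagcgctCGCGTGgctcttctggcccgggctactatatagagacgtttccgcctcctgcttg
ARRDC4: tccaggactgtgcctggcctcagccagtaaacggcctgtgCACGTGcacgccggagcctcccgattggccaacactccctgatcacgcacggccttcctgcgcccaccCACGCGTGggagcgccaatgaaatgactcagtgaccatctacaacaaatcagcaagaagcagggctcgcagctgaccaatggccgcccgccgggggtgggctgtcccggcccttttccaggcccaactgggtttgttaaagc
ARRDC2: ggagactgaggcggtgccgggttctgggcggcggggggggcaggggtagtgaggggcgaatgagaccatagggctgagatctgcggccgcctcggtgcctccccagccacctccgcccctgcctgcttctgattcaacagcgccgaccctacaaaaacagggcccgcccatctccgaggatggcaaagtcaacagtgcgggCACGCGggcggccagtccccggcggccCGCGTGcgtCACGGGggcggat

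TXNIP had 4 E-box-like sites before its first start. Those from -88 to -83 and from -77 to -72 form a pair with 5 bases between them, the arrangement of a carbohydrate response element. That arrangement, CACGNG, 5 bases, CACGNG with each site on either strand, was present in 23 of 35116 promoter windows of this length (0.0655%). The CACGNG site alone was present in 26.7% of them. ARRDC4 had no such pair. It had the full E-box CACGTG at -210 to -205, which the CACGNG search also counts, and 2 overlapping E-box-like sites between -142 and -135. ARRDC2 had 3 E-box-like sites before its first start, between -49 and -8, and MLX had 1 full E-box at -50 to -45. A full E-box was present in 6.34% of all windows. CCAAT, the letters bound by NF-Y, occurred before at least 1 start of every member but MLXIPL, 2 times in the TXNIP window and 3 times in the ARRDC4 window, against 32% of all windows with at least 1. That share is per window, while a gene with 2 starts has 2 windows here. Whether CCAAT is related to the direction of change was not tested. TATAAA, present in 10.7% of all windows, occurred only before the second start of ARRDC2 among these 11. Before the starts of ARRDC1, MLXIP and MLXIPL the letters CACGNG were not found. These matches describe letters only, and no binding was measured.

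**Figure D1:**
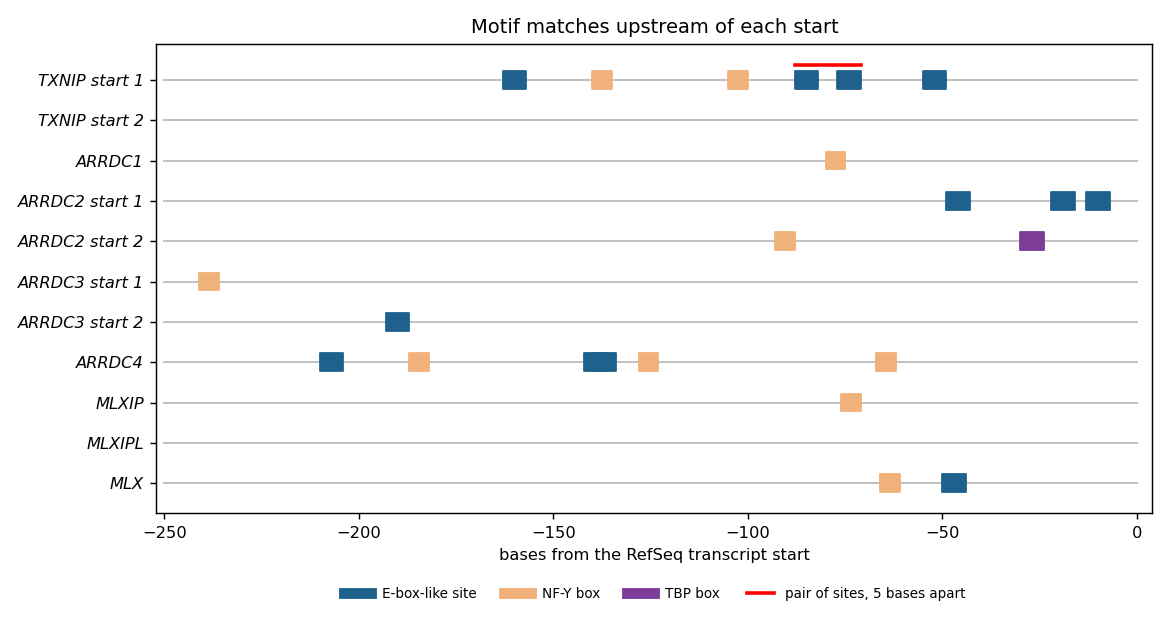
Positions of motif matches in the 250 bases before each of the 11 RefSeq starts of the 8 genes. The x axis is the distance in bases from the start, blue boxes are E-box-like sites, orange boxes CCAAT (NF-Y box), the purple box TATAAA (TBP box) and the red bar the pair of E-box-like sites, which only the first start of TXNIP has among these 11.

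In build GRCh38 of the genome TXNIP lies at chr1:145992435-145996600, ARRDC4 at chr15:97960698-97973838, ARRDC2 at chr19:18001132-18014102, ARRDC3 at chr5:91368724-91383359 and ARRDC1 at chr9:137605654-137615360. The Mondo genes lie at chr12:122078722-122147347 (MLXIP), chr7:73593194-73624543 (MLXIPL) and chr17:42567068-42573239 (MLX). All are protein-coding, and counts are over their exons. TXNIP, ARRDC4, MLXIP and MLXIPL share no exon bases with another gene. MLX shares 18.1% of its exon bases with PSMC3IP on the opposite strand, and ARRDC3 and ARRDC1 share 2.94% and 0.759% with their antisense genes ARRDC3-AS1 and ARRDC1-AS1. ARRDC2 and ARRDC1 also share 9.53% and 4.79% with annotated genes that had 0 counts in every library. Whether the counting used strand is not given in the sources used here, so reads from these shared bases cannot be assigned with certainty.

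Library totals ran from 12625669 to 17544518 counts. On the first principal component, which held 29% of the variance, JQ1-FCPF with sgRNA replicate 2 stood apart from the other libraries of its group, at 32.2 against -16.7 and -14.8. It lay on the side of the JQ1 libraries, which were at 16.8 to 24.6. The control and JQ1-FCPF without sgRNA were at -24.7 to -18.4. JQ1 with sgRNA replicate 1 had the highest share of mitochondrial counts, 7.38%, where the other libraries had 2.28% to 5.91%. Calls among the 8 genes that change without these libraries are given with and without them. The labels call the cells lymphoblasts. All 11 erythroid markers of K562 cells had a mean over 1 CPM (counts-per-million, after TMM scaling of library size), with summed levels of 1871 to 2717 CPM.

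Per exon length, the level of TXNIP averaged 34.9 CPM per kilobase of exon (RPKM) over the 15 libraries and was the highest of the 8 genes. MLXIP followed at 16.8 RPKM and MLX at 15.5 RPKM, then ARRDC1 at 10.8, ARRDC2 at 8.59 and ARRDC3 at 3.96 RPKM. MLXIPL at 3.28 RPKM and ARRDC4 at 2 RPKM were the lowest. ARRDC4 was counted with 70 to 220 reads per library, so counting error is a larger part of its spread than for TXNIP, with 923 to 4936 reads. The remaining alpha-arrestin, ARRDC5, ranged from 0 to 0.148 CPM and was not tested.

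TXNIP changed the most of the 8 genes, and its highest level was in JQ1-FCPF with sgRNA. The levels were 77.2, 73.4 and 81.2 CPM in the control, 66.4, 77.6 and 83.0 CPM in JQ1 without sgRNA, and 79.1, 87.9 and 71.1 CPM in JQ1-FCPF without sgRNA. With sgRNA they were 136, 97.3 and 116 CPM under JQ1 and 293, 254 and 303 CPM under JQ1-FCPF. Every library with sgRNA thus lay above every library without it, and the 3 of JQ1-FCPF with sgRNA lay above all others, including replicate 2, which stood apart on the principal component. As group means the order was JQ1 without sgRNA (75.7 ± 8.46 CPM, SD, n = 3), control (77.3 ± 3.92), JQ1-FCPF without sgRNA (79.4 ± 8.41), JQ1 with sgRNA (116 ± 19.2) and JQ1-FCPF with sgRNA (284 ± 25.9). The 3 lowest groups overlapped one another. Separation of 3 from 3 libraries was common over all tested genes. With against without sgRNA, 22.6% of them were separate under JQ1-FCPF and 15.4% under JQ1. Against the control, 41% were separate in JQ1 without sgRNA, 34.5% in JQ1 with sgRNA and 25.1% in JQ1-FCPF with sgRNA. Between the compounds, 15.5% were separate with sgRNA and 36.2% without it. Per length, TXNIP went from 21.9 RPKM without sgRNA to 78.2 RPKM with it under JQ1-FCPF.

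ARRDC4, which resembles TXNIP in sequence and in its known regulation, had the same 2 groups at the top at a much lower level. It was at 5.98, 5.35 and 5.85 CPM in the control, 7.27, 7.26 and 5.99 CPM in JQ1 without sgRNA, and 6.83, 6.0 and 5.38 CPM in JQ1-FCPF without sgRNA. It was at 9.13, 9.43 and 9.18 CPM in JQ1 with sgRNA and at 12.1, 12.8 and 13.5 CPM in JQ1-FCPF with sgRNA. Both groups with sgRNA were separate from each other and from the 3 groups without it. Of those 3, JQ1-FCPF without sgRNA overlapped both others, and JQ1 without sgRNA lay just above the control. Within a library, the per-length ratio of TXNIP to ARRDC4 was 15.2 ± 0.587 in the control and 24.9 ± 2.5 in JQ1-FCPF with sgRNA (SD, n = 3), so the 2 genes did not change in proportion.

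ARRDC2, an alpha-arrestin that acts with NEDD4-family ligases, moved the other way. Its levels were 47.6, 46.4 and 45.5 CPM in the control and 43.0, 45.5 and 47.4 CPM in JQ1-FCPF without sgRNA, and these 2 groups overlapped. JQ1 without sgRNA gave 41.3, 38.2 and 40.2 CPM and JQ1 with sgRNA 35.8, 41.7 and 39.7 CPM, which overlapped each other and lay below the control. In JQ1-FCPF with sgRNA the levels were 30, 23.6 and 31.4 CPM, below every other library. The lowest of these was replicate 2.

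ARRDC3, known as an adaptor for beta-adrenergic receptors and as a growth suppressor, differed with JQ1. It was at 26.3, 20.4 and 29 CPM in the control and at 26.3, 28.2 and 19.5 CPM in JQ1-FCPF without sgRNA. Under JQ1 it was at 15.2, 14.4 and 13 CPM without sgRNA and 15.2, 14.8 and 11.8 CPM with it. JQ1-FCPF with sgRNA gave 23.2, 15 and 20.8 CPM. All 6 JQ1 libraries lay below all control libraries, and of JQ1-FCPF with sgRNA only replicate 2 reached the JQ1 range.

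ARRDC1, which recruits the ESCRT machinery to bud vesicles from the plasma membrane, showed no separation of groups. Its libraries ranged from 36.3 to 47.7 CPM, and group means from 38.4 ± 2.24 CPM in the control to 43.4 ± 6.15 CPM in JQ1-FCPF without sgRNA. Every pair of neighbours in that order overlapped.

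MLXIP, which encodes MondoA, showed no separation either. Group means ran from 225 ± 12.2 CPM in the control to 245 ± 10.5 CPM in JQ1 with sgRNA, and neighbouring groups overlapped.

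MLXIPL, which encodes ChREBP, was the low Mondo gene. It differed from the control with JQ1 and also in JQ1-FCPF with sgRNA. It was at 11.3, 7.75 and 9.43 CPM in the control and 8.86, 12.7 and 14.1 CPM in JQ1-FCPF without sgRNA. JQ1 gave 15, 19.6 and 20.2 CPM without sgRNA and 25.2, 18.1 and 20.1 CPM with it. JQ1-FCPF with sgRNA gave 17.3, 24.6 and 13 CPM, the widest spread of any group, with replicate 2 the highest. The JQ1 libraries and those of JQ1-FCPF with sgRNA all lay above the control, and only the libraries of JQ1-FCPF without sgRNA overlapped it. The per-length ratio of MLXIP to MLXIPL was 8.36 ± 1.15 in the control and 4.07 ± 0.518 in JQ1 with sgRNA (SD, n = 3), so MLXIP remained the more abundant transcript there.

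MLX, the dimer partner shared by both Mondo proteins, had a narrow but ordered range. It was at 70.8, 72.8 and 73.8 CPM in the control, 75.5, 71.1 and 69.0 CPM in JQ1-FCPF without sgRNA, and 66.4, 67.1 and 63.3 CPM in JQ1 without sgRNA. It was at 60.0, 66.4 and 64.3 CPM in JQ1 with sgRNA and at 54.9, 57.8 and 57.6 CPM in JQ1-FCPF with sgRNA. The last group lay below every other library, and the control and JQ1-FCPF without sgRNA overlapped at the top.

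**Figure D2:**
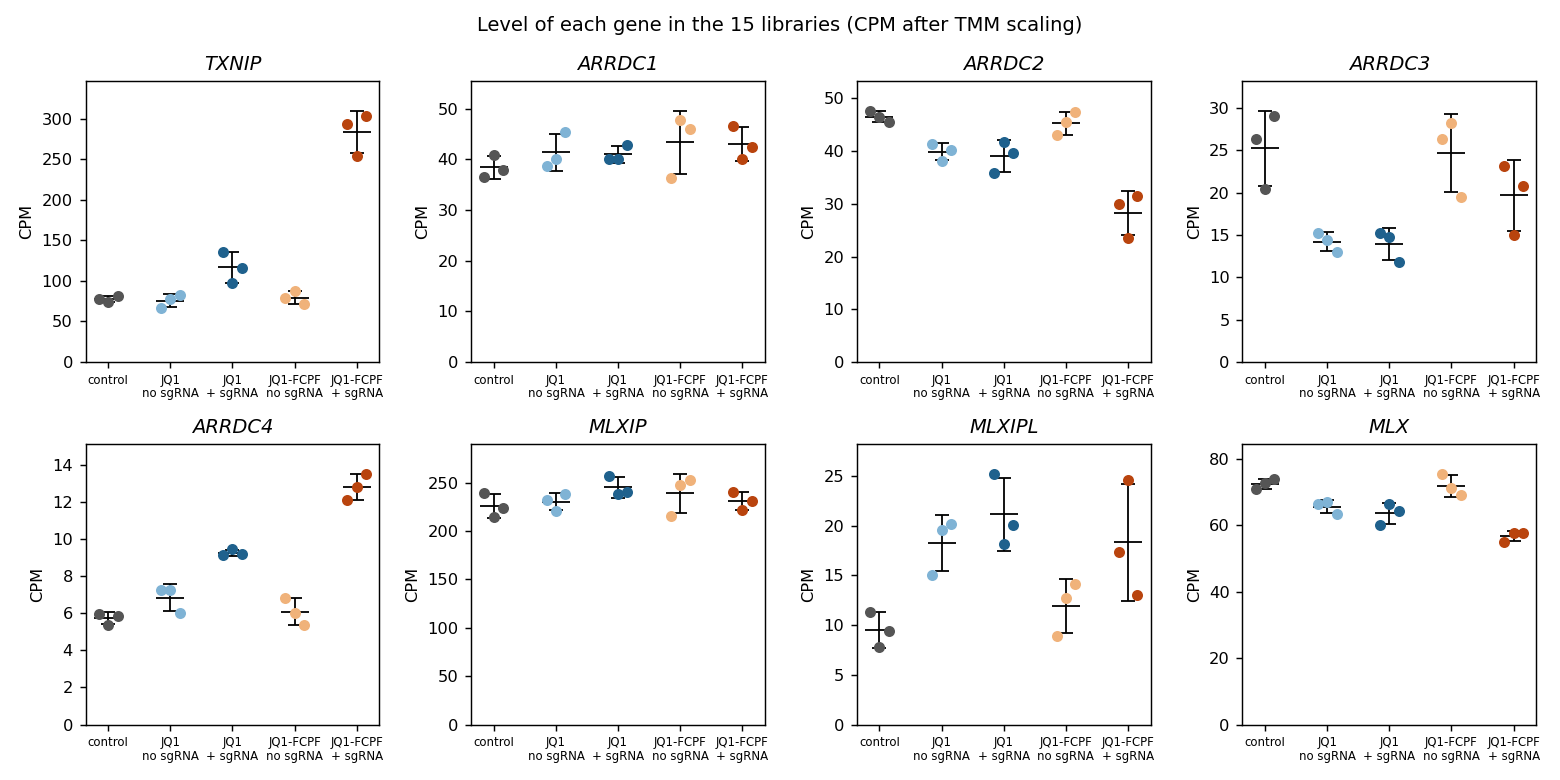
Level of each of the 8 genes in CPM, scaled by TMM, on axes that start at 0. Points are the 3 libraries of a group, the long black bar is the group mean and the whiskers are 1 SD. In JQ1-FCPF with sgRNA, TXNIP lies between 254 and 303 CPM and ARRDC2 between 23.6 and 31.4 CPM, outside the range of all other libraries.

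Comparing JQ1-FCPF with and without sgRNA asks what the sgRNA adds when the compound is JQ1-FCPF. TXNIP and ARRDC4 rose, ARRDC2 and MLX fell, and the other 4 genes did not pass the test. That is 4 of 8 at an adjusted p under 0.05 in edgeR's quasi-likelihood test, where 6.25% of all tested genes passed. The 8 genes were chosen with earlier results known, so setting their count beside that share is not a test. The same holds for the counts in the comparisons below. The median log2 change was -0.03 over the 8 genes and 0.01 over all genes. TXNIP rose 3.57-fold, by 1.84 ± 0.12 on the log2 scale (SE; 95% interval 1.58 to 2.09; adjusted p = 3.8e-09 by edgeR), and only 2 genes had a smaller p. ARRDC4 rose 2.10-fold (log2 1.07 ± 0.14, adjusted p = 4.02e-05 by edgeR). ARRDC2 was 1.59-fold lower (log2 -0.67 ± 0.11, adjusted p = 0.000385 by edgeR). MLX was 1.27-fold lower (log2 -0.34 ± 0.08, adjusted p = 0.0186 by edgeR). The MLX call was lost without JQ1-FCPF with sgRNA replicate 1 (adjusted p = 0.0666) or JQ1-FCPF without sgRNA replicate 2 (0.0537), and PSMC3IP, which shares exon bases with MLX, differed by -0.02 (interval -0.26 to 0.23).

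The interval for MLXIPL was 0.19 to 1.06 around a log2 change of 0.62 (adjusted p = 0.0801 by edgeR). It depended on single libraries: without JQ1-FCPF with sgRNA replicate 3 it was 0.83 and passed (adjusted p = 0.0203), and without replicate 2 it was 0.36 (adjusted p = 0.344). ARRDC3 differed by -0.33 (interval -0.67 to 0.01), and by -0.17 without replicate 2. For ARRDC1 the interval was -0.24 to 0.22 and for MLXIP -0.24 to 0.14. Neither interval reaches a change of 1.27-fold, the size measured for MLX.

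Other things moved with the same comparison. Of the 11 K562 markers, 0 rose and 4 fell, where 2.06% of all tested genes rose and 4.2% fell. LMO2, NFE2, KLF1 and TAL1 fell, by 0.53 to 1.14 on the log2 scale, and the median of the list was -0.28. HBE1 was not called and lay higher, at 284 ± 10.1 CPM without and 334 ± 20.2 CPM with sgRNA. The whole list summed to 2391 to 2527 CPM without and 1893 to 2212 CPM with sgRNA. In JQ1 with sgRNA the sum was 1871 to 2557 CPM, so a low sum was not particular to JQ1-FCPF with sgRNA. Of the 5 fibroblast markers, only COL1A1 was over 1 CPM. Their sum was 2.09 to 2.3 CPM without and 4.41 to 6.72 CPM with sgRNA. The part of these in the TXNIP result was not tested. TXNIP itself was as high without JQ1-FCPF with sgRNA replicate 2, since over all 12 alternatives, including each left-out library, its log2 change lay between 1.76 and 1.92.

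Under JQ1, the sgRNA comparison gave smaller values. No member passed the test, and 0.0129% of all tested genes did. These were 2 of 15517 by edgeR, against 7 by DESeq2 and 1264 at an unadjusted p under 0.05. TXNIP differed 1.54-fold (log2 0.62 ± 0.12, interval 0.37 to 0.87, adjusted p = 0.146 by edgeR). It passed in DESeq2 (adjusted p = 0.00357), without JQ1 with sgRNA replicate 2 (log2 0.73, adjusted p = 0.0348) and without the 2 libraries that stand apart (log2 0.49, adjusted p = 0.0499). ARRDC4 differed by 0.43 (interval 0.14 to 0.72, adjusted p = 0.523 by edgeR). For ARRDC2 the change was -0.03 (interval -0.25 to 0.19) and for MLX -0.05 (interval -0.22 to 0.13).

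Whether the sgRNA effect differs between the compounds was tested as an interaction. It passed for 2 of 8 genes, TXNIP and ARRDC2, and for 0.786% of all tested genes. For TXNIP the effect under JQ1-FCPF exceeded that under JQ1 2.32-fold (log2 1.22 ± 0.17, interval 0.86 to 1.57, adjusted p = 0.00124 by edgeR). This call was kept in all 18 alternatives, with a log2 difference of 1.10 to 1.42. For ARRDC2 the difference was -0.64 ± 0.15 (adjusted p = 0.0444 by edgeR). It was lost in 11 of 18 alternatives, among them the omission of any JQ1 library without sgRNA, of JQ1 with sgRNA replicates 2 or 3, of JQ1-FCPF without sgRNA replicates 2 or 3 and of JQ1-FCPF with sgRNA replicate 1, with adjusted p-values of 0.0643 to 0.154. The intervals for ARRDC4 (0.23 to 1.05) and MLX (-0.54 to -0.05) lay to one side of 0, but their adjusted p-values were 0.142 and 0.271.

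**Figure D3:**
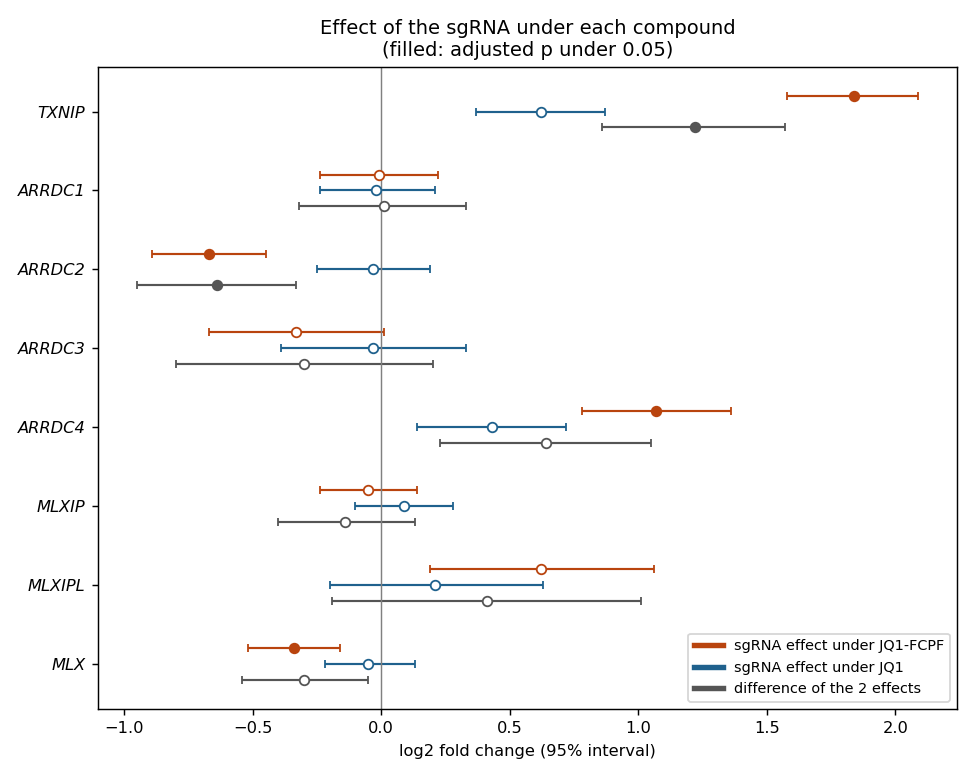
Log2 fold change with sgRNA against without it, for each gene under JQ1-FCPF (orange) and JQ1 (blue), and the difference of the 2 effects (grey). Bars are 95% intervals from edgeR, and filled points have an adjusted p under 0.05. TXNIP is at 1.84 under JQ1-FCPF and 0.62 under JQ1, and ARRDC1 and MLXIP lie at 0 within their intervals in all 3.

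The 2 compounds, given at the same dose and time, were compared directly in 2 pairs, with and without sgRNA, and p-values were adjusted over all tested genes within each pair. These pairs use the same libraries as the sgRNA comparisons and do not add independent support. With sgRNA, 2 of 8 genes passed, against 2.95% of all tested genes. TXNIP was 2.43-fold higher under JQ1-FCPF than under JQ1 (log2 1.28 ± 0.12, adjusted p = 2.68e-06 by edgeR). ARRDC2 was 1.37-fold lower (log2 -0.46 ± 0.11, adjusted p = 0.0211 by edgeR), a call that was lost without JQ1 with sgRNA replicate 2 (0.0957) or 3 (0.0677) or JQ1-FCPF with sgRNA replicate 1 (0.0745). ARRDC4 differed by 0.47 (interval 0.20 to 0.75, adjusted p = 0.0557) and ARRDC3 by 0.50 (interval 0.14 to 0.85, adjusted p = 0.112). Without JQ1-FCPF with sgRNA replicate 2 both passed, ARRDC4 at 0.48 (adjusted p = 0.0204) and ARRDC3 at 0.66 (adjusted p = 0.00717). MLXIPL differed by -0.22 (interval -0.63 to 0.20).

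Without sgRNA, 1 of 8 genes passed, against 7.8% of all tested genes. ARRDC3 was 1.74-fold higher under JQ1-FCPF than under JQ1 (log2 0.80 ± 0.17, adjusted p = 0.0109 by edgeR). This was lost without JQ1 without sgRNA replicate 2 (0.0591) or 3 (0.0503) or JQ1-FCPF without sgRNA replicate 2 (0.0573). MLXIPL differed by -0.63 (interval -1.06 to -0.19, adjusted p = 0.0674), and it passed in DESeq2 (adjusted p = 0.0396) and without the 2 libraries that stand apart (log2 -0.63, adjusted p = 0.00321). TXNIP differed by 0.07 (interval -0.18 to 0.32), an interval that does not reach the log2 difference of 1.28 measured with sgRNA.

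Against the control, the 4 treated groups share the same 3 control libraries, so their values stand side by side without being independent. For JQ1 without sgRNA, 2 of 8 genes passed, against 12.3% of all tested genes. ARRDC3 was 1.78-fold lower (log2 -0.83 ± 0.17, adjusted p = 0.00463 by edgeR), and MLXIPL was 1.91-fold higher (log2 0.94 ± 0.21, adjusted p = 0.00831, and 0.0501 without control replicate 3). ARRDC2 differed by -0.22 (adjusted p = 0.17), and passed without the 2 libraries that stand apart (log2 -0.21, adjusted p = 0.0454), neither of which is in this comparison. TXNIP differed by -0.03 (interval -0.28 to 0.22). The share of mitochondrial counts also differed in this comparison, with 2.28% to 3.18% under JQ1 and 3.21% to 5.91% in the control, and its part in the result was not tested.

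For JQ1 with sgRNA, 4 of 8 genes passed, against 14.2% of all tested genes. TXNIP was 1.51-fold higher (log2 0.59 ± 0.12, adjusted p = 0.00407 by edgeR), ARRDC4 1.61-fold higher (log2 0.69, adjusted p = 0.00412) and MLXIPL 2.22-fold higher (log2 1.15, adjusted p = 0.00197). ARRDC3 was 1.81-fold lower (log2 -0.86, adjusted p = 0.00326). All 4 calls were kept in all 12 alternatives.

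JQ1-FCPF without sgRNA gave values close to the control. None of the 8 genes passed, and 1 of all tested genes (0.00644%) did by edgeR. DESeq2 called 3, and 285 had an unadjusted p under 0.05. TXNIP differed by 0.04 (interval -0.21 to 0.29), ARRDC3 by -0.03 (interval -0.37 to 0.31) and MLXIPL by 0.31 (interval -0.14 to 0.76).

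JQ1-FCPF with sgRNA gave 5 calls of 8, against 7.21% of all tested genes. TXNIP was 3.67-fold higher than in the control (log2 1.88 ± 0.12, adjusted p = 2.55e-09 by edgeR), ARRDC4 2.23-fold higher (log2 1.16, adjusted p = 1.19e-05) and MLXIPL 1.91-fold higher (log2 0.93, adjusted p = 0.0081). ARRDC2 was 1.64-fold lower (log2 -0.71, adjusted p = 0.000172) and MLX 1.28-fold lower (log2 -0.35, adjusted p = 0.0122). The MLXIPL call was lost without control replicate 2 (0.0533), and the MLX call without control replicate 3 (0.0583) or JQ1-FCPF with sgRNA replicate 1 (0.0524). Without JQ1-FCPF with sgRNA replicate 2 the log2 change of MLXIPL was 0.67.

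**Figure D4:**
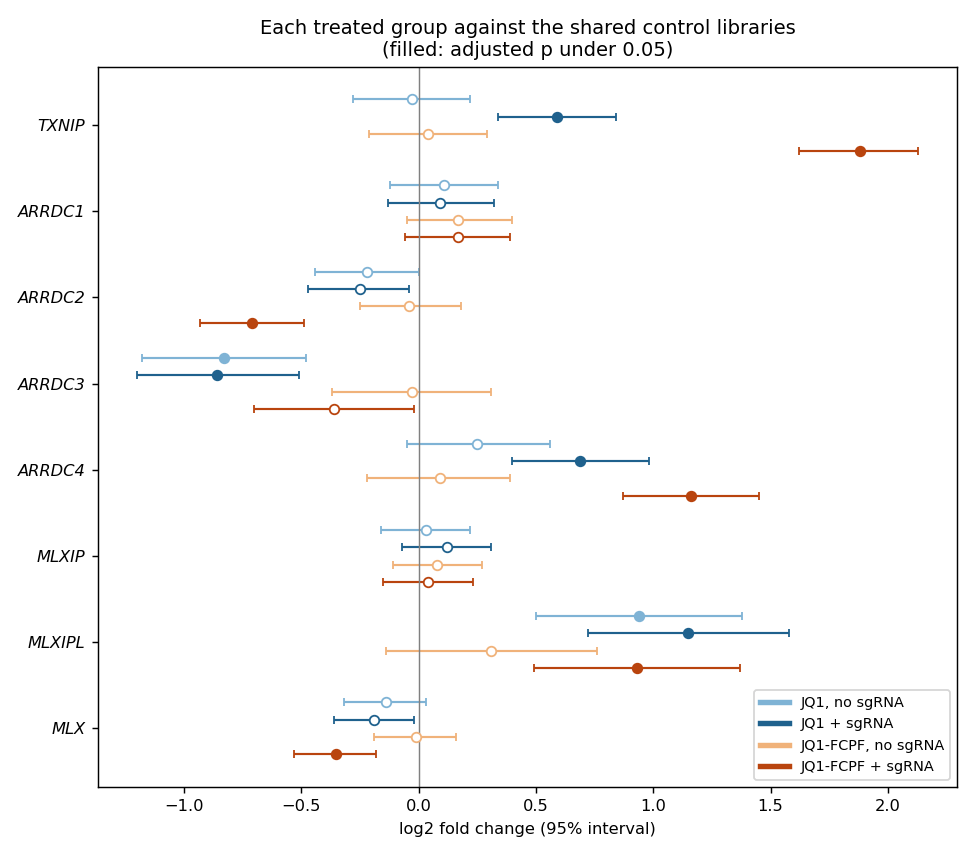
Log2 fold change of each gene in the 4 treated groups against the same 3 control libraries, with 95% intervals from edgeR. Filled points have an adjusted p under 0.05. ARRDC3 is low in both JQ1 groups (-0.83 and -0.86), TXNIP is high in both groups with sgRNA (0.59 and 1.88), and JQ1-FCPF without sgRNA (light orange) has no filled point.

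Around these genes, the pathway was read from lists of partners and targets, for JQ1-FCPF with against without sgRNA unless stated. Of all tested genes, 6.25% passed in that comparison. A short list with 0 calls is therefore near the background, which is not a result about its genes. None of 20 tested genes of the thioredoxin system passed, and the list's median log2 change was 0.10. TXN, the thioredoxin that TXNIP binds, was at 217 ± 17.7 CPM without and 218 ± 21.9 CPM with sgRNA (log2 0.01, interval -0.24 to 0.26). TXNRD1, the reductase that keeps thioredoxin active, differed by 0.22 (interval -0.01 to 0.45). Among glucose transporters and glucose-trapping enzymes, 0 of 12 tested genes passed. SLC2A1, the transporter GLUT1 whose surface level TXNIP lowers, differed by -0.06 (interval -0.29 to 0.18), and SLC2A3 (GLUT3) by -0.26 (interval -0.47 to -0.05, adjusted p = 0.132). In JQ1 with sgRNA against the control, 1 of these 12 genes rose and 1 fell, where 14.2% of all tested genes were called. This is near the background and is not a result about glucose uptake genes. SLC2A1 was lower (log2 -0.42, adjusted p = 0.0179 by edgeR) and SLC2A4, the insulin-responsive transporter, higher (log2 0.67, adjusted p = 0.0265 by edgeR).

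Of 22 tested genes known as carbohydrate response targets of MondoA or ChREBP, other than the arrestins above, none rose and 4 fell, and the median was 0.11. Of all tested genes, 2.06% rose and 4.2% fell, so the absence of rises on a list of this size is near the background and is not a result about these targets. BHLHE40, a transcriptional repressor of the circadian system, fell from 131 ± 2.39 to 47.1 ± 5.04 CPM (log2 -1.47, adjusted p = 1.38e-09 by edgeR). PPP1R3B, a glycogen-targeting subunit of protein phosphatase 1, fell by 0.92, the growth factor gene PDGFA by 0.60 and the repressor gene KLF11 by 0.67 on the log2 scale, with adjusted p-values of 0.00296, 0.00408 and 0.0232. The pair of E-box-like sites found before TXNIP was also present before 20 other genes, of which 15 were tested. Of these, P4HA1, a collagen prolyl hydroxylase, rose (log2 0.46, adjusted p = 0.0431) and HES1, a repressor downstream of Notch, fell (log2 -2.22, adjusted p = 1.38e-09), with a median of 0.12.

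MLX is linked to the MAX network through shared dimer partners. On a list of MLX dimer partners, MAX network genes and related E-box factors, 0 of 14 tested genes rose and 2 fell. Of all tested genes, 2.06% rose and 4.2% fell. The 2 that fell were MYC, at 168 ± 30.7 CPM without and 59.5 ± 1.95 CPM with sgRNA (log2 -1.50, adjusted p = 3.67e-07 by edgeR), and USF1, an E-box factor (log2 -0.35, adjusted p = 0.0441 by edgeR). Among 23 tested factors and kinases known to act on TXNIP, 1 passed, where 6.25% of all tested genes did. It was DDIT4, an inhibitor of mTORC1 signalling, which rose (log2 0.51, adjusted p = 0.0269 by edgeR). NFYA, the DNA-contacting subunit of the CCAAT-binding factor, did not pass in this comparison. It was lower than in the control in JQ1 without sgRNA (log2 -0.80, adjusted p = 0.000576), in JQ1 with sgRNA (log2 -0.87, adjusted p = 0.000155) and in JQ1-FCPF with sgRNA (log2 -0.45, adjusted p = 0.0152). It was higher under JQ1-FCPF than under JQ1 both without sgRNA (log2 0.69, adjusted p = 0.00331) and with it (log2 0.42, adjusted p = 0.048). None of 10 NEDD4-family ligases, 6 other arrestin-fold genes or 10 known cargo genes passed, where 6.25% of all tested genes did. One of 15 vesicle-budding and trafficking partners of ARRDC1 did, the ESCRT-I gene VPS37B (log2 -0.55, adjusted p = 0.00546). Under JQ1 without sgRNA against the control, 2 of the 10 cargo genes rose and 2 fell, where 12.3% of all tested genes were called. AVPR2, the vasopressin receptor gene, fell (log2 -2.42, adjusted p = 0.00236), from 2.92 ± 0.387 to 0.54 ± 0.0323 CPM, and so did TFRC, the transferrin receptor gene (log2 -0.63, adjusted p = 0.00619). ITGB4, an integrin subunit gene, rose (log2 0.72, adjusted p = 0.026), and so did F2R, a thrombin receptor gene (log2 0.45, adjusted p = 0.0439).

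Levels of the 8 genes were also set against each other over the 15 libraries, which share groups and depth, so the values are descriptions. In log2 CPM, TXNIP had a Pearson correlation of 0.91 with ARRDC4, -0.88 with ARRDC2 and -0.86 with MLX. Its correlation was -0.05 with ARRDC3 and 0.07 with MLXIP. ARRDC3 and MLXIPL, which both differed from the control under JQ1, had a correlation of -0.76. MLXIPL was also higher than the control in JQ1-FCPF with sgRNA (log2 0.93).

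Among 10285 genes with a symbol and a mean of at least 5 CPM, those whose pattern was most like that of TXNIP over the 15 libraries were histone genes. H2BC21 had a correlation of 0.98, H2BC9 and H3C10 of 0.96, the pseudogene H2BC20P of 0.94, and H2BC8 and H2BC11 of 0.93. H2BC21 went from 31 ± 1.49 CPM in JQ1-FCPF without sgRNA to 96.4 ± 23.3 CPM with it. Histone genes have near-identical copies, so their counts are uncertain. Least like it were FOXA2 at -0.99, and HES1, F2RL3 and GDF15 at -0.97. FOXA2, a pioneer transcription factor gene, was at 9.47 ± 0.884 CPM without and 1.71 ± 0.333 CPM with sgRNA under JQ1-FCPF.

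Genes most like the other members were different ones. For ARRDC4 they were INSIG1 (0.93), a regulator of cholesterol synthesis, TMEM81 (0.92) and SPIDR (0.91). For ARRDC2 they were SPRYD4 (0.96), NAB2 (0.95) and NFKBIA (0.95), the gene of an NF-kB inhibitor. For ARRDC3 they were FBXL19-AS1 (0.96), FBXO9 (0.93) and PDSS1 (0.92). For MLXIPL they were GOLGA3, MRC2 and TAFA2, each at 0.95, and for MLX they were USP2 and AEN at 0.96 and CCDC8 at 0.95. ARRDC1 and MLXIP had looser matches, SNRNP70 at 0.82 and AACSP1 at 0.90.

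**Figure D5:**
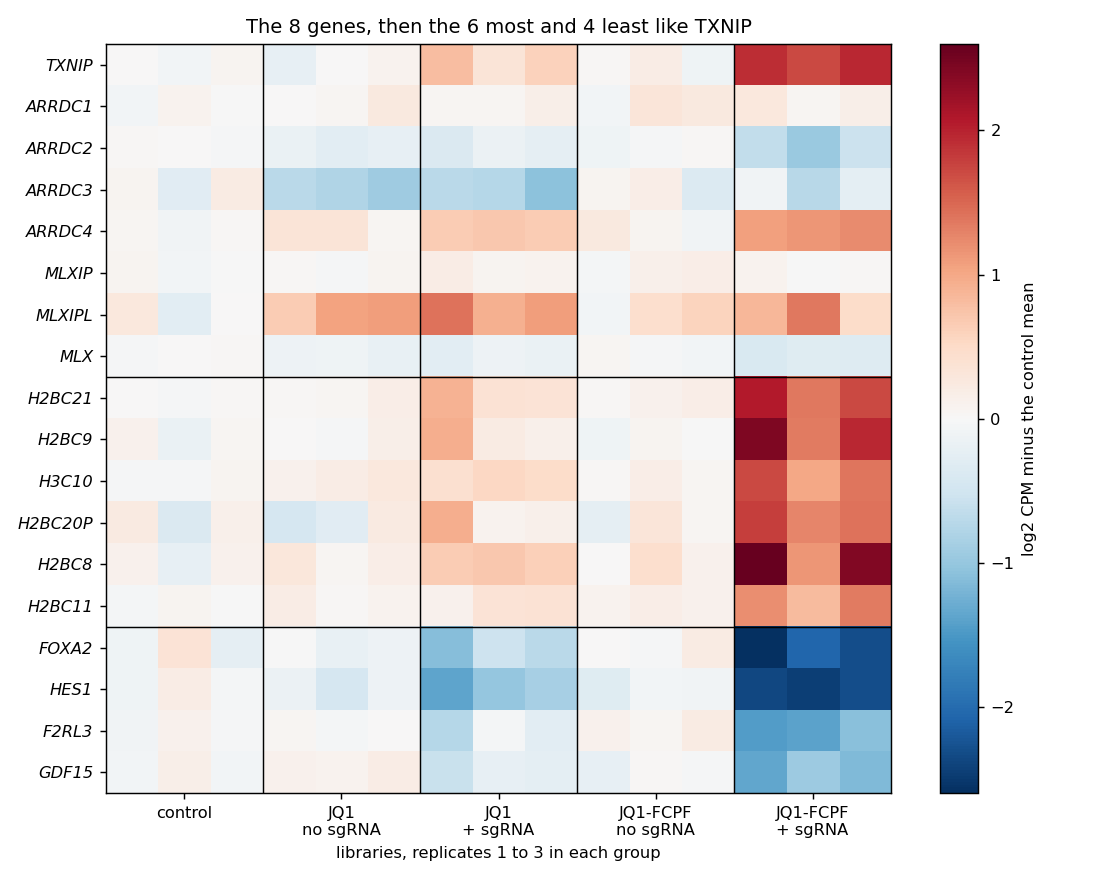
Log2 CPM minus the control mean in each of the 15 libraries, for the 8 genes (top), the 6 genes most like TXNIP (middle) and the 4 least like it (bottom). Red is above and blue below the control mean. TXNIP and the histone genes are most raised in the 3 libraries of JQ1-FCPF with sgRNA, and FOXA2 and HES1 are most lowered there.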

How the data were processed

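Per the labels' protocols, RNA was isolated with Trizol and sequenced by Azenta. The authors deposited raw read counts per gene and library, with each gene's exon length in bases beside the counts per the file headers. The aligner, annotation and strand setting were not given in the sources used here. GENCODE release 29 holds 56898 of the identifiers, 96.3% with identical coordinates, so positions are in GRCh38.

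The counts were fitted with edgeR 4.0.16 in R 4.3.3, with filterByExpr, TMM scaling and a quasi-likelihood fit of 5 group means to all 15 libraries. The biological coefficient of variation was 11.1%. A gene was called at a Benjamini-Hochberg adjusted p under 0.05 over 15517 genes. CPM and RPKM were computed here from these counts, and log2 CPM carries a prior count of 2. Chi-square per degree of freedom between libraries of a group was 2.76 to 43.2, more spread than counting error alone gives. This does not tell separate cultures from separate preparations of the same RNA. Promoter windows came from RefSeq (GRCh38.p14).

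The genes and lists were chosen with earlier results of these data known. Named genes are the 8 genes, up to 4 called genes per list and comparison with the smallest p, the genes most and least like each by correlation, and TXN, TXNRD1, SLC2A1 and SLC2A3; P4HA1 and HES1, named for their pair of E-box-like sites, were chosen after their values were seen. Alternatives were DESeq2 1.42.0, its size factors, no filter, the title letter as a block, only the groups compared, and leaving out libraries.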

Additional observations from a re-analysis of the deposited data

Results flagged for a closer look

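The effect of the sgRNA differed between the 2 compounds for 2 of the 8 genes, by the interaction term of the edgeR fit, against 0.786% of all tested genes. For TXNIP the log2 change with sgRNA was 1.84 under JQ1-FCPF and 0.62 under JQ1, a difference of 1.22 (adjusted p = 0.00124), and the level was higher in all 3 libraries with sgRNA than in all 3 without it under both compounds. For ARRDC2 the changes were -0.67 and -0.03, a difference of -0.64 (adjusted p = 0.0444), with all 3 libraries lower under JQ1-FCPF and overlapping libraries under JQ1. Of all tested genes, 22.6% had no overlap between libraries with and without sgRNA under JQ1-FCPF, and 15.4% under JQ1. Separation alone is thus common. The ARRDC2 call was lost in 11 of 18 alternatives, and the TXNIP call in none of them.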

How the results depend on the processing

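Over the alternatives, 912 values of the 8 genes were recomputed: 866 kept their side of the threshold, 27 lost their call, 19 gained one and no called value changed sign, although 28 uncalled ones did. TXNIP kept its calls in JQ1-FCPF with against without sgRNA (log2 1.76 to 1.92), in JQ1-FCPF against JQ1 with sgRNA (1.17 to 1.49), in both groups with sgRNA against the control (0.47 to 0.70 and 1.82 to 1.96) and in the interaction (1.10 to 1.42). For JQ1 with against without sgRNA, TXNIP gained a call with no filter (log2 0.63, adjusted p = 0.000132), in DESeq2 (0.62) and without both libraries that stand apart (0.49), and leaving out 1 library at a time gave 0.49 to 0.73. The number of the 8 genes called there went from 0 to 1 in these 3 settings and was 0 to 1 on leaving out 1 library. For JQ1-FCPF against JQ1 with sgRNA it went from 2 to 4 without both libraries and to 1 with only the groups compared, and was 1 to 4 on leaving out 1 library. Without sgRNA it went from 1 to 2 with no filter, without both libraries, with only the groups compared and in DESeq2, and was 0 to 1 on leaving out 1. For JQ1 without sgRNA against the control it was 1 to 2 against 2. On leaving out 1 library it was 3 to 5 against 4 for JQ1-FCPF with against without sgRNA. For JQ1-FCPF with sgRNA against the control it was 4 to 5 against 5. For the interaction it went from 2 to 1 with DESeq2's size factors and with only the groups compared, and was 1 to 2 on leaving out 1. With the causes not tested, the MLX calls were also lost with no filter (adjusted p = 0.106 for the sgRNA under JQ1-FCPF and 0.0593 against the control), and the first with only the groups compared (0.108).

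The title letters are not stated to pair the libraries. Of 30 same-letter pairs 4 had a correlation of deviations over 0.1 (-0.238 to 0.311), against 15 of 60 other pairs (-0.339 to 0.237). Pairing was thus not seen, but with 3 libraries a group this check cannot exclude it. With the letter as a replicate block, TXNIP changed by 1.83 in JQ1-FCPF with against without sgRNA, 1 of the 8 genes was called in the interaction (ARRDC2 was lost, adjusted p = 0.0605), and no other call of the 8 genes changed.

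Counts over all genes moved more. For JQ1-FCPF with against without sgRNA the 970 calls became 1600 without both libraries that stand apart, 351 with only the groups compared and 428 to 1129 on leaving out 1 library. For JQ1 with against without sgRNA the 2 calls became 9, 0 and 0 to 3 in the same settings, 80 with no filter and 7 in DESeq2. JQ1-FCPF against JQ1 with sgRNA went from 458 to 3176, 11 and 68 to 2757, the highest without JQ1-FCPF with sgRNA replicate 2, and to 822 with no filter. Without sgRNA it went from 1210 to 3554, 2959 and 76 to 973. Against the control, JQ1 without sgRNA went from 1908 to 4234, 4521 and 430 to 1338, JQ1 with sgRNA from 2211 to 3582 without both libraries and 726 to 1858 on leaving out 1, and JQ1-FCPF with sgRNA from 1119 to 1745, 543 and 542 to 1201. JQ1-FCPF without sgRNA went from 1 to 4, 2 and, in DESeq2, 3. The interaction went from 122 to 511, 81 and 50 to 346, to 316 with no filter and to 267 in DESeq2. With 3 libraries a group and ARRDC4 at 70 to 220 reads, changes well under the intervals given were not detectable.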
